A study of Danio rerio with 4 samples.

Results

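The 10 heat shock chaperone genes described here were followed through 4 single-cell RNA libraries of zebrafish (strain AB) ventricle cells, out of 24438 gene symbols in the count matrices. The members are hsp70l, hsp70.1, hsp70.2 and hsp70.3, which code for stress-inducible Hsp70 proteins, hspb1 and hspb8 for small heat shock proteins, hsp90aa1.1 and hsp90aa1.2 for Hsp90 alpha proteins, dnajb1b for a J protein and bag3 for a co-chaperone. They were chosen by symbol, each symbol had 1 feature ID, and all 10 had UMIs (unique molecular identifiers) in each library. Hsp70 proteins bind unfolded stretches of other proteins in cycles of ATP hydrolysis; J proteins bring them their clients and speed hydrolysis, and Bag proteins release the bound nucleotide. Small heat shock proteins hold unfolding proteins without ATP, and Hsp90 proteins finish the folding of kinases, receptors and, in muscle, myosin. In mammals BAG3 joins HSPB8 to Hsp70 and steers damaged filament proteins of the muscle's Z-disc to autophagy, and heat shock factors switch these genes on when proteins unfold.

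The libraries, 1 per group, came from cells sorted for EGFP driven by the promoter of pdgfrb, the gene of a growth factor receptor of mural cells (pericytes and vascular smooth muscle). The mutant library was from fish of 6 months with pdgfrb-/- (um148 allele) and Tg(pdgfrb:EGFP; cxcl12b:Citrine; fli1a:DsRed), and its wildtype counterpart had the same transgenes and age. The injured library was from fish of 18 months with Tg(pdgfrb:EGFP; cxcl12b:Citrine), 7 days after the ventricle's apex was cut off, and the uninjured library from fish of the same age and transgenes with no cut. How many fish went into a library, and where the um148 change lies relative to the counted 3' tags, could not be read from the labels. After filtering, 1119 mutant, 949 wildtype, 1392 injured and 2010 uninjured cells remained, with 2772269, 1990550, 6695501 and 7982726 UMIs and medians of 2160, 1731, 3651 and 3315.5 UMIs per cell in that order. Members made up 0.339% of UMIs in mutant, 0.620% in wildtype, 1.16% in injured and 1.63% in uninjured. The mutant library held 7 UMIs of pdgfrb, against 115 in wildtype. Of all barcodes, 9 were shared between pairs of libraries.

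Clusters, made without the 10 members and without the chaperone lists described later, were named from marker genes. Cardiomyocyte-like cells numbered 929 in mutant, 701 in wildtype, 658 in injured and 1056 in uninjured, although the sorted reporter EGFP reached only 2.42 to 9.77 CPM (UMIs per 1000000 UMIs of the summed cells) in them. Fibroblast-like and epicardium-like cells were pooled and numbered 152, 125, 241 and 337 in the same order. Mural-like cells, which had the most EGFP (7989.9 CPM in wildtype), numbered 0 in mutant, 92 in wildtype, 18 in injured and 19 in uninjured. Endocardium-like (270 injured, 372 uninjured), macrophage-like (66 and 97), T and NK lymphocyte-like (53 and 83) and thrombocyte-like (22 and 11) cells came almost wholly from the fish of 18 months. The endocardium-like class was named from a joint list of endothelial and endocardial markers, which does not tell vessel endothelium apart. It includes a small cluster led by ncam3, lyve1a, cxcl12b and plvapb, with 24 injured and 17 uninjured cells. Classes with under 20 cells in a library and erythrocyte-like cells are not plotted, and comparisons in them were chosen after their values were seen.

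With 1 library per group no difference here has a replicate check, and no p-value is given. Intervals are exact at 95% and cover counting error only. Between 2 libraries a gene with at least 20 UMIs over both was called higher or lower when its ratio was beyond 1.5-fold and the interval left out a ratio of 1; this compares libraries, not conditions. A 3' tag count is not scaled by gene length. The closely related Hsp70 copies and the pair of Hsp90 alpha genes may share reads, and how the counting dealt with those was not tested, so values per copy are uncertain.

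The 4 Hsp70 genes summed were high in the rarer, non-muscle cells and low in most heart muscle cells. Mural-like cells held 28838 (27832 to 29871) CPM of Hsp70 transcripts in wildtype, 30568 in injured (18 cells) and 79157 in uninjured (19 cells). In thrombocyte-like cells the summed level was 63023 CPM in injured and 64231 in uninjured (11 cells). In both classes Hsp70 transcripts were thus a sizeable part of all RNA counted. Endocardium-like cells had 16291 (16077 to 16507) CPM in injured and 32048 (31758 to 32339) CPM in uninjured. Macrophage-like cells had 11934 CPM in injured and 15840.0 in uninjured, and T and NK lymphocyte-like cells had 6692 and 17079. All of these uninjured levels lay above the injured ones, except that the thrombocyte-like intervals overlapped.

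Fibroblast-like and epicardium-like cells stood in the middle, with 4018 (3817 to 4227) CPM in mutant, 6362 (6055 to 6679.9) in wildtype, 5406 (5299 to 5514) in injured and 10010.4 (9863 to 10159) in uninjured. Of the classes plotted, which leave out erythrocyte-like cells, cardiomyocyte-like cells were lowest, at 533 (503 to 564) CPM in mutant, 375 (345 to 407) in wildtype, 1243 (1199 to 1288) in injured and 961 (929.8 to 994) in uninjured. The order mural-like, endocardium-like, fibroblast-like and epicardium-like, cardiomyocyte-like was the same in injured and uninjured, and its neighbours did not overlap in interval. Erythrocyte-like cells of the fish of 6 months were near 0, with 4 Hsp70 UMIs in 22 mutant cells and 0 in 15 wildtype cells. In the fish of 18 months they held 4725 CPM in injured (50 cells) and 7485 in uninjured (19 cells), and the same cells carried 2519.6 and 379 CPM of myl7, a cardiomyocyte myosin light chain. The part of free RNA or doublets in these values was not tested.

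A list of 38 genes (fosab, socs3a, jun, junba and others) was drawn up to follow stress from cell dissociation. Whether dissociation induced each of these genes here was not tested. The summed level of the list was likewise high in mural-like and low in cardiomyocyte-like cells. It was 132400.0 CPM in wildtype mural-like cells, 51908 in injured and 56783 in uninjured endocardium-like cells, and 3851 to 6197 in cardiomyocyte-like cells of the 4 libraries. The genes of this list were not kept out of the clustering behind the classes. Across the cells of a class and library (10 groups of at least 100 cells) the Hsp70 share correlated with this list at r = 0.406 to 0.714. Both are shares of the same cell's UMIs, and the correlation with the UMIs of the cell was -0.053 to 0.371. The ventricles were digested with enzymes under constant movement, and the part of dissociation in the chaperone levels was not tested.

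**Figure D1:**
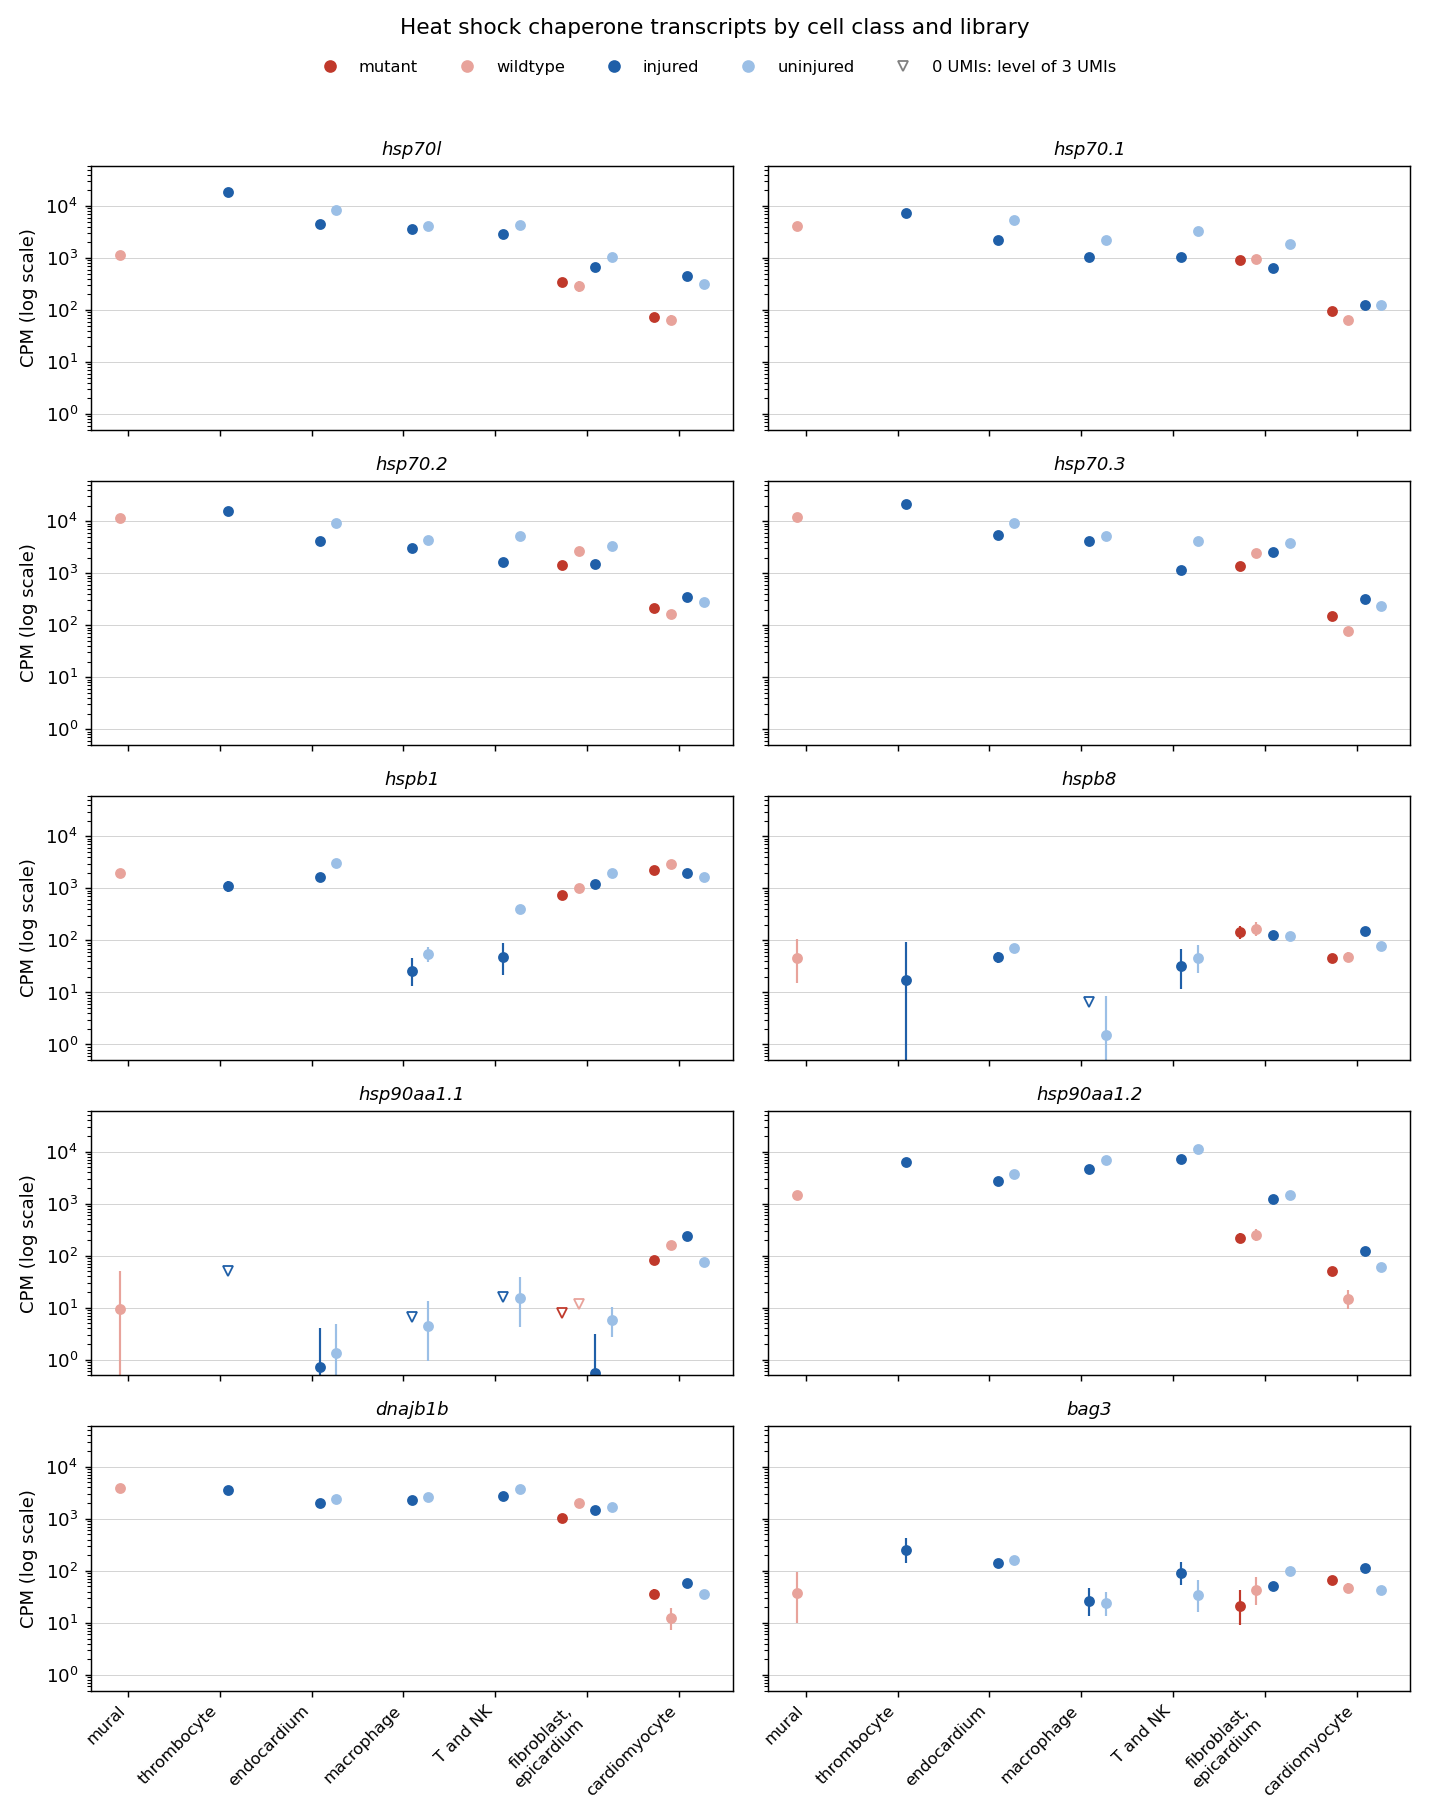
Level of each member in CPM (vertical axis, log scale) by cell class (horizontal axis) and library (colour), in groups of at least 20 cells, with erythrocyte-like cells not drawn; bars are exact 95% Poisson intervals of the UMIs, and an open triangle marks 0 UMIs, drawn at the level 3 UMIs would give. The 4 Hsp70 genes, hsp90aa1.2 and dnajb1b are lowest in cardiomyocyte-like cells among the classes drawn, while hsp90aa1.1 is seen there at 77.1 to 234 CPM and at most 15.5 CPM in the other classes drawn.

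The make-up of the Hsp70 pool differed between classes. In RefSeq's gene order (assembly GRCz12tu) hsp70.1, hsp70.2 and hsp70.3 are direct neighbours, while hsp70l lies elsewhere. In wildtype, hsp70l gave 3.99% of the Hsp70 UMIs of mural-like cells, 4.46% of those of fibroblast-like and epicardium-like cells, and 17.3% of those of cardiomyocyte-like cells. In mutant it gave 8.56% in fibroblast-like and epicardium-like and 14.1% in cardiomyocyte-like cells. The mutant cardiomyocyte-like value came mostly from 68 cells of a titin-rich cluster described further on. There hsp70l gave 157 of 1010 Hsp70 UMIs, against 12 of 190 in the other 861 cells. In wildtype it gave 35 of 175 inside that cluster and 66 of 409 outside. The share was larger in the same classes of the fish of 18 months: 12.2% in injured and 10.3% in uninjured fibroblast-like and epicardium-like cells, 27.3% and 25.96% in endocardium-like cells (too few to compare at 6 months), and 36.1% and 33.2% in cardiomyocyte-like cells. T and NK lymphocyte-like cells had 42.9% of their Hsp70 UMIs from hsp70l in injured and 25.4% in uninjured. Age and transgenes differ together between the pairs of libraries, so their parts cannot be told apart. The make-up of the classes differed as well. A fibroblast-like cluster led by postnb and lum held 19 mutant, 10 wildtype, 141 injured and 168 uninjured cells. The part of such differences in the hsp70l share was not tested.

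Within a class the Hsp70 share of single cells spread from 0 to far above the mean. In endocardium-like cells the median cell gave 1.103% of its UMIs to the 4 Hsp70 genes in injured (highest 7.702%) and 2.77% in uninjured (highest 17.5%). Cells at 5% or more were 9 of 270 in injured and 83 of 372 in uninjured. Wildtype mural-like cells had a median of 2.26%, and injured thrombocyte-like cells one of 7.49%, with 14 of 22 cells at 5% or more. The median fibroblast-like or epicardium-like cell was at 0.139% in mutant, 0.193% in wildtype, 0.304% in injured and 0.797% in uninjured. Most cardiomyocyte-like cells had none: 88.4% of mutant, 79.03% of wildtype, 66.9% of injured and 64.8% of uninjured cells held 0 Hsp70 UMIs. Pairs of Hsp70 genes correlated across the cells of a group at r = 0.212 to 0.719, over the 57 pairs in the same 10 groups in which each gene was seen in at least 30 cells. The pairs of hsp70l in wildtype fibroblast-like and epicardium-like cells fell below that number. These coefficients describe sparse counts that share each cell's total.

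**Figure D2:**
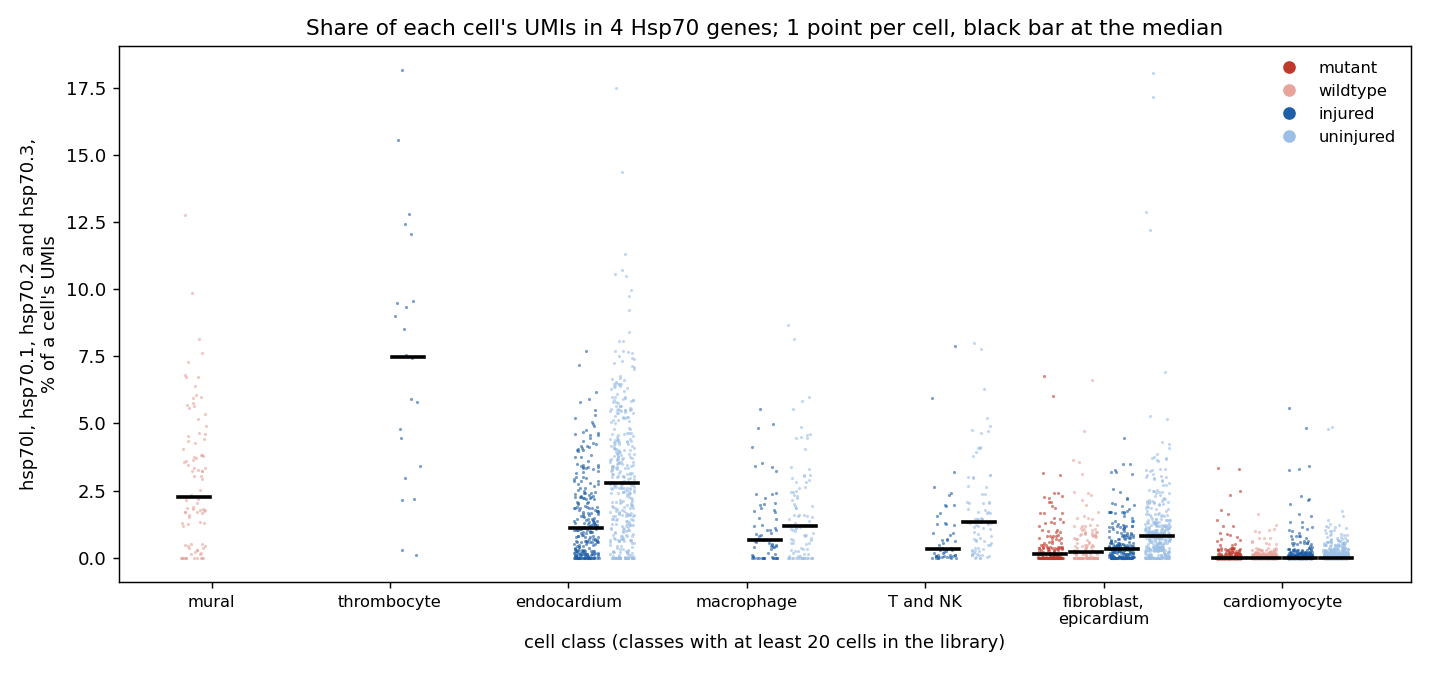
Percent of a cell's UMIs in hsp70l, hsp70.1, hsp70.2 and hsp70.3 together (vertical axis), 1 point per cell, by cell class and library (colour), with a black bar at the median. The medians are 7.49% in injured thrombocyte-like cells and 0% in cardiomyocyte-like cells of all 4 libraries.

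The neighbouring Hsp90 alpha genes differed in their spread over the cell classes. In zebrafish hsp90aa1.1 serves myosin folding in skeletal muscle, and here its UMIs came almost wholly from cardiomyocyte-like cells: 183 of 183 in mutant, 253 of 254 in wildtype, 580 of 589 in injured and 280 of 301 in uninjured. Its level there was 81.3 (69.9 to 93.9) CPM in mutant, 163 (143 to 184) in wildtype, 234 (215 to 254) in injured and 77.1 (68.4 to 86.7) in uninjured. In endocardium-like cells it had 1 UMI in injured and 2 in uninjured. By contrast hsp90aa1.2 reached 7298 CPM in injured and 11345 CPM in uninjured T and NK lymphocyte-like cells and 4638 and 6859.9 in macrophage-like cells. In cardiomyocyte-like cells it stood at 49.7 CPM in mutant, 14.8 in wildtype, 123 in injured and 59.5 in uninjured. Even so, 112 of the 223 hsp90aa1.2 UMIs of the mutant library came from cardiomyocyte-like cells, which held 81.2% of all its UMIs, against 23 of 263 in wildtype, 306 of 10776 in injured and 216 of 16348 in uninjured. Of the 263 in wildtype, 159 came from mural-like cells, a class with 0 cells in mutant, so these shares do not rest on the same classes. Both genes were present in 1 cluster of cardiomyocyte-like cells, rich in titin transcripts and described further on. There hsp90aa1.2 stood at 737 CPM in mutant, 167 in wildtype, 1339 in injured and 2388 in uninjured, and hsp90aa1.1 at 107, 438, 1363 and 153 CPM in the same order. This cluster held 103 of the 112 hsp90aa1.2 UMIs of mutant cardiomyocyte-like cells and 8 of the 23 in wildtype. Across cardiomyocyte-like cells the pair correlated at r = 0.313 in injured and 0.126 in uninjured. After every cell was thinned to 500 UMIs, 92.5% of injured and 92.8% of uninjured T and NK lymphocyte-like cells still held a UMI of hsp90aa1.2, against 3.34% and 1.61% of cardiomyocyte-like cells (98.1%, 98.8%, 10.8% and 7.77% before thinning). Median depths were 1941 and 1798 UMIs in the lymphocyte-like cells and 2998 and 2716 in the cardiomyocyte-like cells, injured and uninjured in turn. For hsp90aa1.1 the largest level outside muscle was 33.3 CPM (7 UMIs) in injured erythrocyte-like cells, which also held myl7.

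The J protein gene dnajb1b was, like Hsp70, lower in cardiomyocyte-like cells than in the other classes given here, among which its levels were more even. Unlike the summed Hsp70 level, it stood higher in T and NK lymphocyte-like than in endocardium-like cells, in injured and in uninjured. It had 3995 CPM in wildtype mural-like cells, 2743 in injured and 3730.0 in uninjured T and NK lymphocyte-like cells, and 1990.2 and 2423 in endocardium-like cells. Fibroblast-like and epicardium-like cells held 1056 CPM in mutant, 2058 in wildtype, 1457 in injured and 1652 in uninjured. Cardiomyocyte-like cells held between 12.2 CPM in wildtype and 58.4 CPM in injured.

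Of the small heat shock proteins hspb1 was abundant in muscle and in some other classes, whereas hspb8 was low in every class. Most muscle cells had a low level of bag3. In cardiomyocyte-like cells hspb1, whose protein guards actin and other filaments, stood at 2234 (2172 to 2296) CPM in mutant, 2972 (2887 to 3059) in wildtype, 2018 (1962 to 2075) in injured and 1658 (1616 to 1699.9) in uninjured. In endocardium-like cells it stood at 1629 CPM in injured and at 3066 in uninjured, where it was above the cardiomyocyte-like level. Wildtype mural-like cells held 2007 CPM of hspb1. It was nearly missing from macrophage-like cells (26.3 CPM injured, 54.4 uninjured). That sets it apart from Hsp70, which macrophage-like cells held at a high level. The Z-disc chaperone gene hspb8 stood at 45.7 CPM in mutant, 48.2 in wildtype, 154 in injured and 79.9 in uninjured cardiomyocyte-like cells. In fibroblast-like and epicardium-like cells it stood at 142 CPM in mutant, 169 in wildtype, 127 in injured and 121 in uninjured, and macrophage-like cells had 0 UMIs in injured and 1 in uninjured. The co-chaperone gene bag3 stood in cardiomyocyte-like cells at 65.3 CPM in mutant, 46.9 in wildtype, 113 in injured and 43.5 in uninjured, and outside the titin-rich cluster at only 13.3 to 28.7 CPM. Endocardium-like cells held 139.9 CPM in injured and 163 in uninjured, and fibroblast-like and epicardium-like cells 21.5 in mutant, 43.4 in wildtype, 50.6 in injured and 98.9 in uninjured.

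Among cardiomyocyte-like cells the inducible members stood at a higher level in 1 cluster than in the rest. This cluster was singled out after its values were seen. Its leading genes were the giant sarcomere genes ttn.2 and ttn.1, slc8a1a (the sodium-calcium exchanger), myh7ba, flnca and ryr2b. It held 68 of 929 mutant cells (7.32%, 5.73 to 9.19%, exact binomial interval), 30 of 701 wildtype cells (4.28%, 2.91 to 6.05%), 34 of 658 injured cells (5.17%, 3.605 to 7.15%) and 13 of 1056 uninjured cells (1.23%, 0.657 to 2.096%). From these few cells came 84.2% of the Hsp70 UMIs of mutant cardiomyocyte-like cells, 29.97% in wildtype, 58.5% in injured and 13.2% in uninjured. In wildtype and uninjured most of these UMIs thus lay outside the cluster.

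The Hsp70 level in the titin-rich cluster was 7225 CPM in mutant, 3646 in wildtype, 10927 in injured and 10076 in uninjured, against 89.95, 271, 553 and 845 CPM in the other cardiomyocyte-like cells of the same libraries. For bag3 the levels were 851 CPM in mutant, 854 in wildtype, 1478 in injured and 1205 in uninjured, against 13.3, 21.2, 15.97 and 28.7 CPM. Thinned to 500 UMIs, 57.4% of the cluster's mutant and 46.7% of its wildtype cells held an Hsp70 UMI, against 2.09% and 8.35% of the other cardiomyocyte-like cells (69.1%, 53.3%, 7.08% and 19.5% unthinned). Less concentrated was hspb1, of whose cardiomyocyte-like UMIs the cluster held 14.1% in mutant, 3.93% in wildtype, 13.5% in injured and 2.78% in uninjured. Its level was higher inside all the same, at 5079 CPM inside and 2045 outside the cluster in mutant, 3792 and 2946 in wildtype, 4089 and 1870.4 in injured, and 3658 and 1632 in uninjured.

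Other measures moved with the cluster. The dissociation list stood at 26922 to 49686 CPM in it over the 4 libraries, against 3318 to 4569 CPM outside. The genes of this list, and myl7 and the markers below, were not kept out of the clustering. Their levels in the cluster are thus not independent of how it was made. The median mitochondrial share of UMIs was 4.83% to 9.62% inside and 0.587% to 0.794% outside. Median UMIs per cell were 1278 and 2200.0 in mutant, 866.5 and 1970.0 in wildtype, 2946.5 and 2998 in injured, and 999 and 2727 in uninjured, inside and outside in turn. The level of myl7 was 31031 to 45022 CPM inside the cluster and 64913 to 92107 outside. Endothelial and endocardial markers summed to 20.8 to 78.7 CPM inside and 5.96 to 16.8 outside. The inside values rested on 1 UMI in wildtype and 2 in uninjured, with intervals that cover the level outside in the same library. Fibroblast markers summed to 35.8 CPM in mutant, 20.8 in wildtype (1 UMI), 60.6 in injured and 329 in uninjured (15 UMIs) inside, against 71.5, 100.1, 37.1 and 20.4 outside. The part of other cells' RNA in the cluster was not tested. The part of cell damage or dissociation in this cluster was not tested. Outside it the Hsp70 level followed the order of the libraries as a whole. These held 1029 CPM in mutant, 2756 in wildtype, 7113 in injured and 11011 in uninjured. Cardiomyocyte-like cells outside the cluster held 190 of the 2852 Hsp70 UMIs of the mutant library and 409 of 5486 in wildtype. Of the dnajb1b UMIs they held 3 of 502 in mutant and 5 of 1016 in wildtype. The part of free RNA in these levels was not tested.

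**Figure D3:**
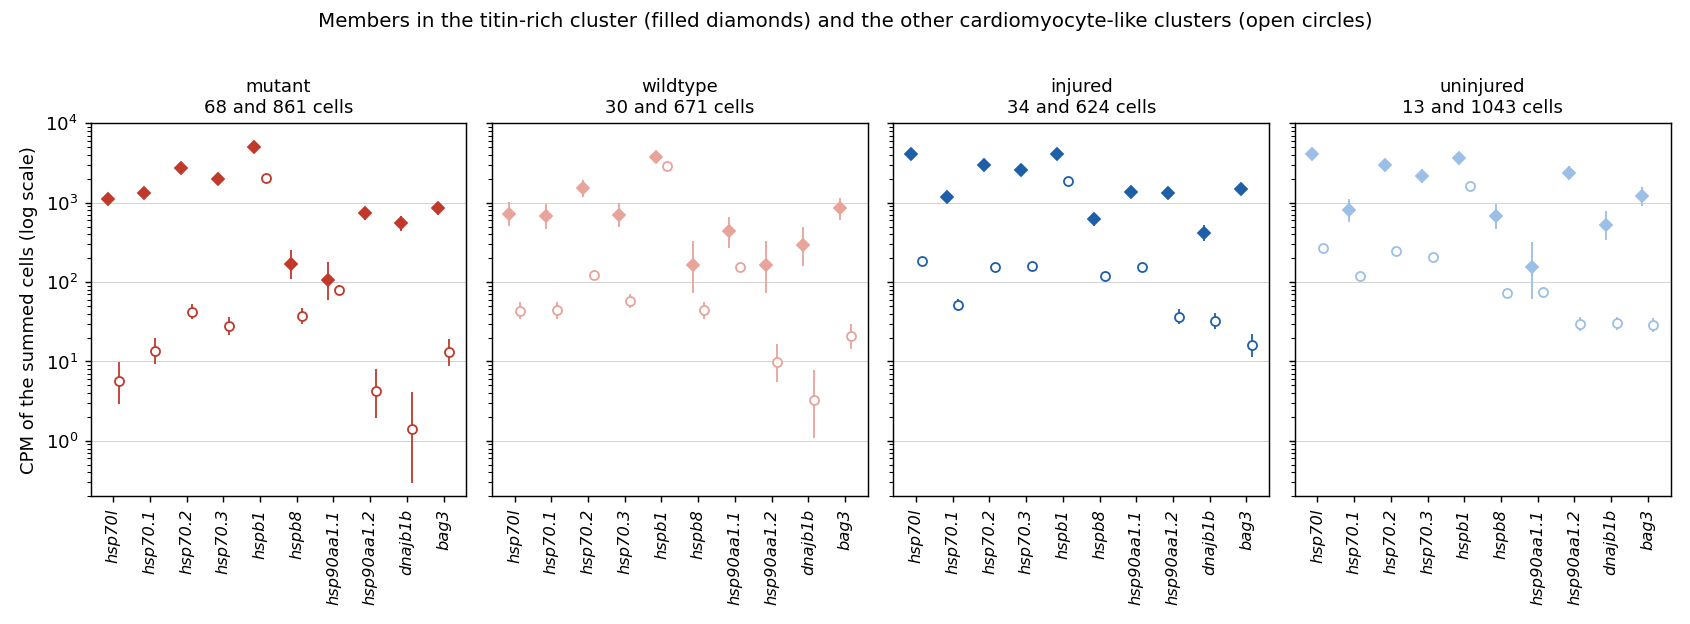
Level of each member in CPM of the summed cells (vertical axis, log scale) in the titin-rich cluster (filled diamonds) and the other cardiomyocyte-like clusters (open circles), 1 panel per library, with exact 95% Poisson intervals; the 2 cell numbers over each panel are in that order. The point of each of the 10 members lies higher in the titin-rich cluster in each library, with overlapping intervals for hsp90aa1.1 in mutant and uninjured.

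The first comparison asks how the members stand in cells of pdgfrb mutant hearts against wildtype hearts. Summed over all kept cells, 6 of 10 members were lower in mutant and 0 higher, where 15.9% of all 6569 genes measured were lower and 5.27% higher. With TMM scaling, which is meant to centre the ratio on the bulk of genes instead of on total UMIs, 5 were lower and 0 higher, against 10.7% and 8.89% (hsp90aa1.2 was no longer called). The log2 ratio, with its interval in brackets, was -1.702 [-1.82 to -1.59] for hsp70.3 (317 CPM in mutant, 1030.4 in wildtype), -1.56 [-1.66 to -1.45] for hsp70.2, -1.495 [-1.65 to -1.34] for dnajb1b, -1.05 [-1.204 to -0.898] for hsp70.1, -0.95 [-1.23 to -0.67] for hsp90aa1.1 and -0.72 [-0.98 to -0.45] for hsp90aa1.2. Mural-like cells, of which the mutant library had none, held 56.6% of the Hsp70 UMIs of the wildtype library in 5.41% of its UMIs. Without them 2 of 10 members were lower (hsp90aa1.1 and dnajb1b) and 0 higher, against 10.4% and 6.7% of all genes, and hsp90aa1.2 turned to 0.54. TMM scaling then gave the same 2 lower and hsp90aa1.2 higher (0.65), against 7.62% and 9.11% of all genes. In a sum over cells, fewer cells of a type and less RNA per cell cannot be told apart.

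Within fibroblast-like and epicardium-like cells 3 of 8 measured members were lower in mutant and 0 higher, against 16.9% and 4.25% of 2588 genes, whose median was -0.27. With TMM scaling 2 were lower, hsp70.2 (-0.63) and dnajb1b (-0.66), and 0 higher, against 8.31% and 12.1%. The 3 lower at total UMIs were hsp70.2 at -0.94 [-1.104 to -0.77] (1414 CPM in mutant, 2708 in wildtype), hsp70.3 at -0.82 [-0.99 to -0.65] (1359.9 and 2400.4 CPM) and dnajb1b at -0.96 [-1.15 to -0.77] (1056 and 2058 CPM). For the other 5 the values were 0.28 [-0.15 to 0.71] for hsp70l, -0.11 [-0.35 to 0.14] for hsp70.1, -0.46 [-0.71 to -0.21] for hspb1, -0.25 [-0.86 to 0.36] for hspb8 and -0.21 [-0.703 to 0.28] for hsp90aa1.2. The dissociation list stood at 38938 CPM in these mutant cells and 65419 in wildtype, and 16 of its 33 measured genes were lower (11 with TMM scaling). When every cell counted equally (500 UMIs each), hsp70.2 remained lower at -0.74, hsp70.3 stood at -0.02 and dnajb1b at -0.48, and hsp70l (1.06) and hsp70.1 (0.76) were higher.

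Cardiomyocyte-like cells gave opposite answers inside and outside the titin-rich cluster. Over the whole class 3 of 10 members were higher in mutant and 1 lower, against 10.9% and 7.38% of 4402 genes. Those higher were hsp90aa1.2 (112 UMIs in mutant, 23 in wildtype, log2 ratio 1.75 [1.09 to 2.47]), dnajb1b (80 and 19 UMIs, 1.54 [0.81 to 2.35]) and hsp70.3 (339 and 122 UMIs, 0.94 [0.64 to 1.25]), and hsp90aa1.1 was lower at -1.0 [-1.28 to -0.72]. A few cells held most of these UMIs: the 1% of mutant cells with most UMIs of the gene held 89.3% of the hsp90aa1.2 UMIs and 95% of those of dnajb1b. Without the titin-rich cluster 5 of 9 measured members were lower and 0 higher, against 9.47% and 8.41% of 3948 genes. The log2 ratio was then -2.94 [-3.97 to -2.04] for hsp70l (12 UMIs in mutant, 66 in wildtype), -1.69 [-2.37 to -1.04] for hsp70.1, -1.55 [-1.93 to -1.18] for hsp70.2, -1.06 [-1.56 to -0.57] for hsp70.3 and -0.95 [-1.25 to -0.66] for hsp90aa1.1. Inside the cluster (68 mutant cells, 30 wildtype cells) 6 of 10 were higher and 1 lower, against 9.09% of 1067 genes in each direction: hsp70l (0.62), hsp70.1 (0.95), hsp70.2 (0.86), hsp70.3 (1.499), hsp90aa1.2 (2.14) and dnajb1b (0.92) were higher, and hsp90aa1.1 (-2.03, 15 UMIs in mutant and 21 in wildtype) was lower. TMM scaling called hspb1 (0.79) higher as well, which made 7 higher and 1 lower, but against 23.9% of genes higher and 4.12% lower, with a median of 0.41. At total UMIs that median was 0.04, so TMM scaling did not centre the ratios inside the cluster.

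Of the members called, hsp90aa1.1 alone was called in the same direction inside and outside the cluster. In mutant cardiomyocyte-like cells it was lower over the whole class, inside the titin-rich cluster and outside it, and also without the 1% of cells with most of its UMIs (-1.07). No member was called when each cell was thinned to 500 UMIs, at which depth hsp90aa1.1 stood at -0.48 and was seen in 3.88% of mutant and 4.99% of wildtype cells (13.7% and 23.97% unthinned). Thinning leaves fewer UMIs of every gene, and the share of all genes called at that depth is not given. The abundant hspb1 stood at -0.41 [-0.47 to -0.35] in the class and did not reach 1.5-fold.

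**Figure D4:**
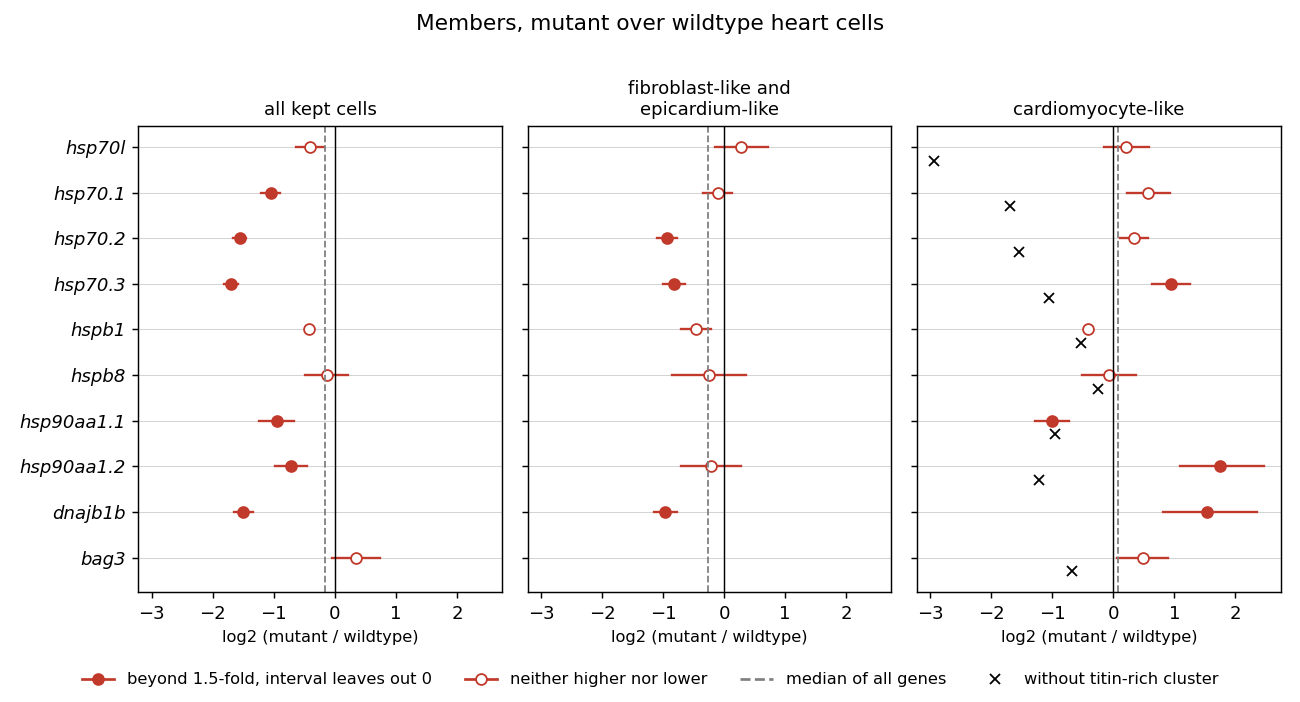
Log2 ratio of each measured member, mutant over wildtype (horizontal axis), with exact 95% intervals, summed over all kept cells and over the 2 classes with at least 50 cells in both libraries. Filled points are called; the dashed line is the median of all genes, and crosses give the ratio without the titin-rich cluster, which puts hsp70.3 at -1.06 in place of 0.94.

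The second comparison asks how the members stand 7 days after amputation against uninjured hearts of the same age. Over all kept cells 1 of 10 members was higher in injured (hsp90aa1.1, 1.22 [1.02 to 1.43]) and 2 lower (hsp70.1, -1.08 [-1.13 to -1.04], and hsp70.2, -0.81 [-0.84 to -0.78]), against 22.7% and 3.81% of 11307 genes. The median of all genes was itself 0.31, and with TMM scaling, which moves that median, 6 were lower and 1 higher, against 9.91% and 9.82% of all genes.

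Endocardium-like cells, a class that may also hold vessel endothelium, held 46.4% of the Hsp70 UMIs of the injured and 53.4% of those of the uninjured library. In them 5 of 9 measured members were lower in injured and 0 higher, against 4.96% and 8.35% of 6516 genes. The log2 ratio was -1.29 [-1.35 to -1.23] for hsp70.1 (2250.2 CPM in injured, 5505 in uninjured), -1.15 [-1.196 to -1.11] for hsp70.2 (4085 and 9070.2 CPM), -0.91 [-0.99 to -0.84] for hspb1, -0.904 [-0.95 to -0.86] for hsp70l and -0.73 [-0.77 to -0.69] for hsp70.3. Closer to 0 were the partners: hsp90aa1.2 stood at -0.49 [-0.55 to -0.43], dnajb1b at -0.28 [-0.36 to -0.21] and bag3 at -0.22 [-0.503 to 0.06]. The dissociation list was at 51908 CPM in injured and 56783 in uninjured, with 1 of 34 measured genes higher and 4 lower, and myl7 was at 837 and 2861 CPM. The 5 lower calls also stood at 500 UMIs per cell, a depth for which no share of all genes called is given. TMM scaling called hspb8 (-0.67) lower as well, which made 6, and 0 higher, against 6.57% and 6.22% of genes.

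Fibroblast-like and epicardium-like cells also had 5 of 9 measured members lower in injured and 0 higher, against 4.62% and 25.1% of 7344 genes, whose median was 0.39. With TMM scaling 7 were lower and 0 higher, hsp70.3 (-0.93) and hsp90aa1.2 (-0.60) being added, against 12.1% and 11% of genes. At total UMIs the log2 ratio was -1.56 [-1.66 to -1.46] for hsp70.1 (636 CPM in injured, 1874 in uninjured), -1.13 [-1.19 to -1.06] for hsp70.2, -0.97 [-1.35 to -0.59] for bag3 (50.6 and 98.9 CPM), -0.66 [-0.74 to -0.59] for hspb1 and -0.64 [-0.75 to -0.53] for hsp70l. Within the Hsp70 neighbours hsp70.3, at -0.55 [-0.602 to -0.49], was closest to 0, and its share of the Hsp70 UMIs was 47.8% in injured and 37.7% in uninjured. At 500 UMIs per cell bag3 stood at 0.16. The dissociation list was at 34689 CPM in injured and 35970.4 in uninjured, and myl7 at 276 and 1498.

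Of the blood cells, T and NK lymphocyte-like cells (53 injured, 83 uninjured) had 6 of 8 measured members lower in injured and 1 higher, against 7.13% and 11.2% of 2119 genes (the same counts with TMM scaling, against 9.44% and 7.98%). The log2 ratios were -1.81 [-2.03 to -1.602] for hsp70.3, -1.702 [-1.89 to -1.52] for hsp70.2, -1.703 [-1.94 to -1.48] for hsp70.1, -0.597 [-0.75 to -0.45] for hsp70l, -0.64 [-0.73 to -0.54] for hsp90aa1.2 and -3.04 [-4.21 to -2.06] for hspb1 (9 UMIs in injured, 102 in uninjured). The higher one was bag3, with 17 UMIs in injured, 12 of them in 1 cell, and 9 in uninjured. At 500 UMIs per cell 3 were lower and 0 higher, with no share of all genes called at that depth to set beside them. Macrophage-like cells had 2 of 8 lower, hsp70.1 at -1.07 [-1.22 to -0.92] and hspb1 at -1.05 [-2.13 to -0.07] (12 and 36 UMIs), and 0 higher, against 5.94% and 6.07% of 3923 genes. In mural-like cells, 18 in injured and 19 in uninjured, 7 of 7 measured members were lower and 0 higher, against 9.43% and 9.2% of 435 genes, with hsp70l at -1.69 [-1.97 to -1.42] and hsp70.2 at -1.66 [-1.86 to -1.46].

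Cardiomyocyte-like cells had other members called over the class as a whole: 5 of 10 members were higher in injured and 0 lower, against 19.3% and 3.08% of 5037 genes, whose median was 0.28. With TMM scaling 4 were higher and 0 lower, against 8.32% and 10.2%, and dnajb1b (0.33) was no longer called. The 5 higher at total UMIs were hsp90aa1.1 at 1.6 [1.39 to 1.81], bag3 at 1.38 [1.09 to 1.67], hsp90aa1.2 at 1.05 [0.795 to 1.31], hspb8 at 0.95 [0.72 to 1.17] and dnajb1b at 0.67 [0.32 to 1.02]. The Hsp70 genes and hspb1, which were lower in injured endocardium-like cells, were called neither higher nor lower. The titin-rich cluster, 5.17% of injured and 1.23% of uninjured cells of the class, held 86.8% of the bag3 UMIs of the class in injured and 34.8% in uninjured. Without it 2 of 10 were higher and 3 lower, against 13% and 4.25% of 4725 genes, and with TMM scaling 1 was higher (hsp90aa1.1) and 5 lower, against 7.3% and 9.12%. At total UMIs still higher were hsp90aa1.1 at 1.01 [0.78 to 1.24] and hspb8 at 0.74 [0.49 to 0.99]; bag3 turned to -0.85 [-1.43 to -0.29], and hsp70.1 (-1.198 [-1.502 to -0.902]) and hsp70.2 (-0.65 [-0.83 to -0.47]) were lower, as both were in the endocardium-like class and the pooled fibroblast-like and epicardium-like class. Inside it, with 13 uninjured cells, hsp90aa1.1 was higher at 3.15 [2.09 to 4.48] (225 UMIs in injured, 81 of them in 1 cell, and 7 in uninjured), hsp90aa1.2 was lower at -0.83 [-1.17 to -0.49], and the other 8 were neither, against 9.52% of 1008 genes higher and 5.06% lower. With TMM scaling 2 were higher, hsp90aa1.1 and hsp70.1 (0.83), and 0 lower, against 18.8% and 2.38%. The median of all genes inside the cluster was then 0.43, and 0.15 at total UMIs, so TMM scaling did not centre these ratios.

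**Figure D5:**
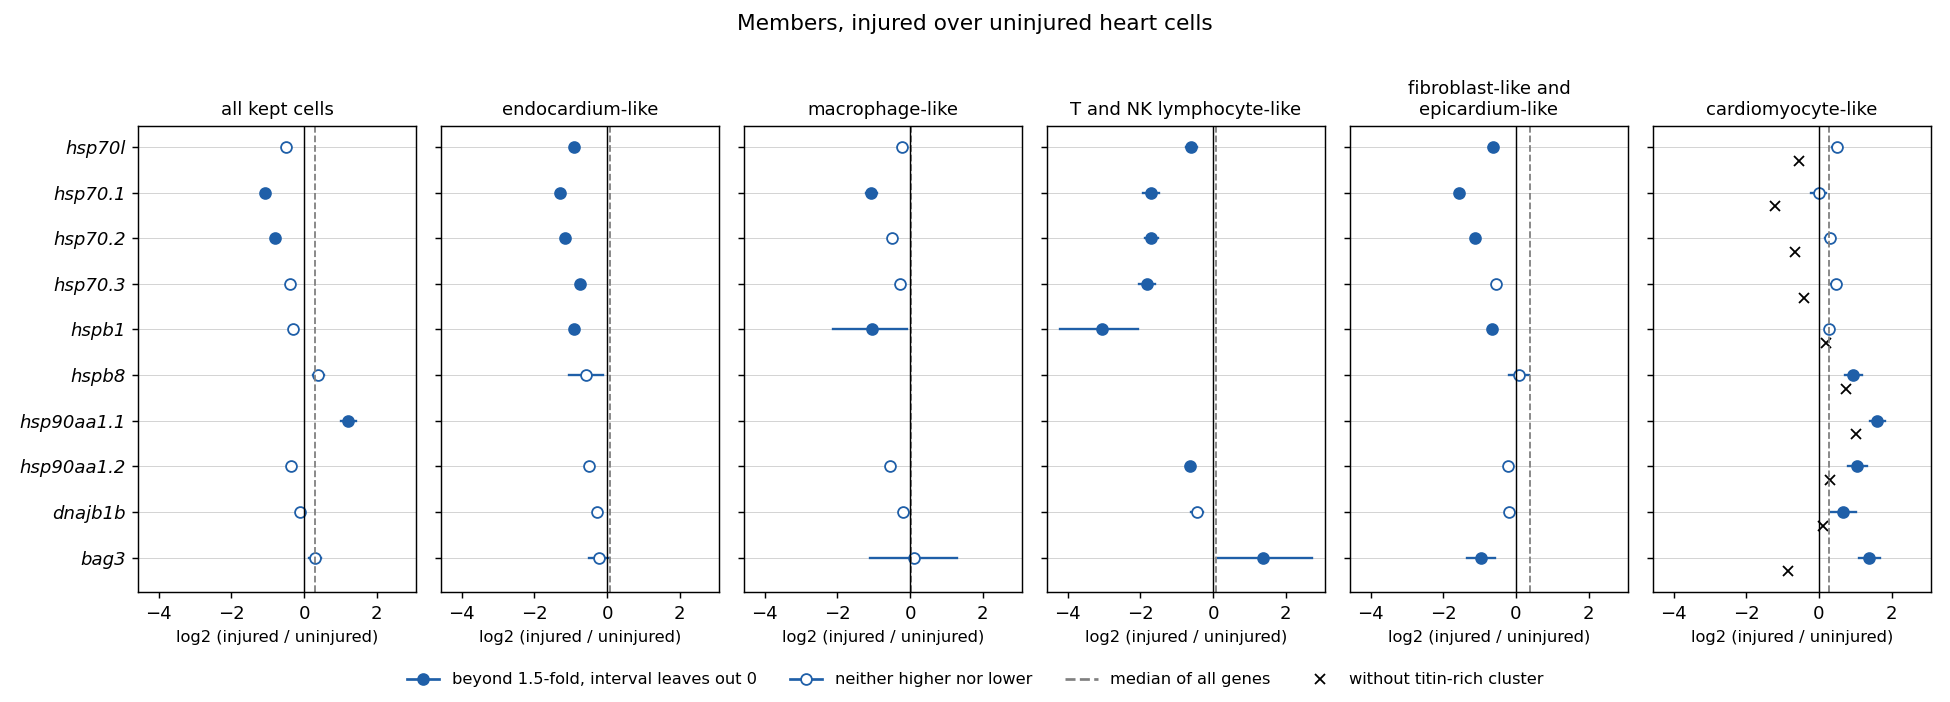
Log2 ratio of each measured member, injured over uninjured (horizontal axis), with exact 95% intervals, over all kept cells and the 5 classes with at least 50 cells in both libraries. Filled points are called, the dashed line is the median of all genes, and crosses give the ratio without the titin-rich cluster, which puts bag3 at -0.85 in place of 1.38.

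Other chaperone genes were read from further lists by role, in which the named genes are those with most UMIs. The counts below stand against 10.9% of all genes higher and 7.38% lower in mutant cardiomyocyte-like cells, and 19.3% higher and 3.08% lower in injured ones (8.32% and 10.2% with TMM scaling). Of the other Hsp70 genes and partners, hspa8, a constitutive Hsp70, stood at 0.095 in injured over uninjured endocardium-like cells (2551 CPM in injured, 2389 in uninjured). In the pooled fibroblast-like and epicardium-like class it was higher, at 0.65 (0.27 and not called with TMM scaling). In injured cardiomyocyte-like cells 7 of 13 measured genes of this list were higher and 0 lower, and 4 of 11 higher and 0 lower without the titin-rich cluster, against 13% and 4.25% of all genes there. TMM scaling gave 5 higher and 1 lower over the whole class, and 2 and 0 without the cluster. In mutant cardiomyocyte-like cells 0 of 9 were higher and 2 lower. Of the Hsp90 genes and co-chaperones 0 of 12 were higher and 2 lower in mutant cardiomyocyte-like cells, and 6 of 14 higher and 1 lower in injured ones, where TMM scaling gave 0 higher and 2 lower. Among them hsp90ab1, the constitutive form, stood at 0.27 in mutant over wildtype and -0.06 in injured over uninjured cardiomyocyte-like cells. The steroid receptor co-chaperone gene fkbp5 was lower in injured endocardium-like (-1.56), cardiomyocyte-like (-0.89) and fibroblast-like and epicardium-like cells (-0.86). The myosin co-chaperone gene smyd1b was lower in mutant cardiomyocyte-like cells, at -1.12 (197 CPM in mutant, 428 in wildtype), as hsp90aa1.1 was.

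Small heat shock proteins other than the members were lower in mutant cardiomyocyte-like cells for 3 of 5 measured genes with 0 higher (median -0.82, all genes 0.07), and for the same count without the titin-rich cluster. They included hspb11 (-0.82, 1969 CPM in mutant and 3477 in wildtype) and hspb6 (-0.89), whereas hspb7 stood at -0.04 and hspb2 at 0.17. A cardiomyocyte-like cluster with hspb11 among its leading genes held 13 mutant and 28 wildtype cells. Its part in the hspb11 ratio was not tested. In injured cardiomyocyte-like cells 1 of 7 measured genes of this list was higher and 0 lower. J proteins other than dnajb1b gave 1 higher and 1 lower of 10 in mutant cardiomyocyte-like cells and 1 higher, dnajb4 (1.05), of 11 in injured ones. Chaperonins, the barrel-shaped folding chambers, moved little: of 10 measured genes, 0 were higher and 1 lower in mutant cardiomyocyte-like cells, 1 was higher and 0 lower in injured ones (0 and 2 with TMM scaling), and 0 were called in injured endocardium-like cells. Heat shock factors and their binding proteins were thinly counted, with 1 of 3 higher and 0 lower in mutant cardiomyocyte-like cells, which was hsf2 (0.69, 70 and 30 UMIs). It was lower in injured fibroblast-like and epicardium-like cells (-0.61). Of bag3's partners in filament care, 3 of 10 were higher and 0 lower in injured cardiomyocyte-like cells, with 19.3% of all genes higher there (3 and 0 with TMM scaling); among them were desma (desmin, 1.32) and ubc (ubiquitin, 1.11).

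The genes with the pattern most like that of the summed members, over the 18 groups of library and class with at least 20 cells and among 4925 genes, were mob4 (r = 0.965), setb (0.954), prkab1b (0.947), seta (0.947) and khdrbs1a (0.938), on log2 (CPM + 10). The groups share libraries and the contrast of cardiomyocytes with other cells. Of the members themselves, hsp70.2 followed the sum most closely (0.973), and hspb1 (0.332), hspb8 (0.123) and hsp90aa1.1 (-0.296) least. Each member is part of that sum, so members with many UMIs follow it in part by construction.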

How the data were processed

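Each deposited matrix holds unnormalised UMI counts of the authors. The file headers name Cell Ranger 4.0.0; GRCz11 and, for a step not named, Seurat come from the submitters' processing notes. The libraries were made with a 10x Genomics 3' kit, per the labels' protocols. Of 11795 barcodes, 5470 passed a floor of 200 genes and a ceiling of 25% mitochondrial UMIs; 25.6% to 65.5% of barcodes per library were left out. No doublet caller was used. Features that share a symbol were summed (25110 features, 24438 symbols). Leiden clustering (scanpy 1.11.5, igraph 0.11.9; 30 components, 15 neighbours, resolution 1; 1972 variable genes, without members and chaperone lists) gave 21 clusters. A cluster was named from 12 marker lists (131 of 136 symbols found) when at least 3 of a list's markers were prominent in it and 75% of its cells held at least 2 UMIs of the list; 2 clusters stayed unnamed.

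UMIs were summed per class and library and given as CPM, with Poisson, Clopper-Pearson and conditional binomial intervals (scipy 1.17.1). A count of 0 was set to a floor of 3 UMIs for ratios. The ratio and its call were checked on simulated counts. Gene places were read from RefSeq's GRCz12tu table for neighbours alone, and all 10 members had a place. The named genes were the members, the 4 genes with most UMIs of each of 9 lists and the 5 genes most like the members. Members and lists were chosen with earlier results of these data known. Alternatives were TMM scaling (edgeR 4.0.16), other filters, clusterings and depths. The planned search of promoters for heat shock elements was not run.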

Additional observations from a re-analysis of the deposited data

Results flagged for a closer look

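In mutant over wildtype, hsp70.3 was higher in cardiomyocyte-like cells (log2 ratio 0.94) but lower in the pooled fibroblast-like and epicardium-like class (-0.82), as was dnajb1b (1.54 and -0.96). In injured over uninjured, hsp90aa1.2 was higher in cardiomyocyte-like cells (1.05) and lower in T and NK lymphocyte-like cells (-0.64). There bag3 was higher in cardiomyocyte-like cells (1.38) and in T and NK lymphocyte-like cells (1.38) and lower in fibroblast-like and epicardium-like cells (-0.97). These values are listed because the directions were opposite between cell classes of the same pair of libraries. The titin-rich cluster held 82.6% of the hsp70.3 and 96.25% of the dnajb1b UMIs of mutant cardiomyocyte-like cells. In injured cardiomyocyte-like cells it held 72.2% of the hsp90aa1.2 and 86.8% of the bag3 UMIs. Outside it hsp70.3 was lower in mutant (27.9 CPM, 58.3 in wildtype) and bag3 lower in injured (16.0 CPM, 28.7 in uninjured). There dnajb1b was too thinly counted to measure in mutant over wildtype, and hsp90aa1.2 was not called in injured. In fibroblast-like and epicardium-like cells thinned to equal depth, the hsp70.3, dnajb1b and bag3 ratios were within 1.5-fold. The bag3 value in T and NK lymphocyte-like cells rested on 17 UMIs in injured, 12 of them in 1 cell. With 1 library per group the difference between classes was not tested.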

How the results depend on the processing

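Of 736 recomputed single-gene values, 543 moved by less than their counting interval, 186 moved by more and 7 were counted as reversed. The 7 do not hold every change of sign. Of the 543, 82 came from dropping the minimum of UMIs, which cannot change a ratio. TMM scaling moved 45 values by more than the interval and 37 by less. Thinning to 500 UMIs moved 50 by more and 29 by less, and reversed 1. Without the titin-rich cluster, chosen after seeing the data, hsp70.3 turned in mutant cardiomyocyte-like cells (-1.06) and bag3 in injured ones (-0.85). In the same mutant cells hsp70l, hsp70.1 and hsp70.2 also went from above to below a ratio of 1. The ratio of hsp90aa1.2 (-1.22) then rested on 9 UMIs in mutant and 15 in wildtype and was not called, and that of dnajb1b (-1.22) on 3 and 5, too few to measure. Leaving out mural-like cells, also chosen after seeing the data, turned hsp90aa1.2 over all kept mutant cells (0.54) and gave 2 calls in place of 6. Without the 1% of cells with most UMIs of the gene, hsp90aa1.2 stood at -0.40 in mutant cardiomyocyte-like cells. At 500 UMIs per cell bag3 stood at 0.16 in injured fibroblast-like and epicardium-like cells, and the members called were 0 in mutant (4 unthinned) and 3 in injured (5) cardiomyocyte-like cells and 3 in T and NK lymphocyte-like cells (7). No share of all genes called is given at that depth, and thinning leaves fewer UMIs of every gene. TMM scaling gave 7 calls over all kept injured cells in place of 3. In macrophage-like cells the 2 calls became 1 without the top cells, 4 without the 2% of deepest cells, 4 at clustering resolution 0.5 and 4 when clustering used the members. The share of all genes called under these settings is not given. Clustering with the members put the summed members in fibroblast-like and epicardium-like over cardiomyocyte-like cells at 1.31 in injured (1.27 before). Alternatives for the endocardium-like, macrophage-like and T and NK classes were also chosen after seeing the data. No paired analysis was possible because each group has 1 library. The causes were not tested. Few cells and low counts limit hspb8, bag3 and hsp90aa1.1 outside muscle.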

Other observations

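A list of endoplasmic reticulum chaperones, which fold secreted and membrane proteins, took another course than the cytosolic members in the pooled fibroblast-like and epicardium-like class after injury. The list also held the transcription factor genes xbp1, ddit3, atf4a and atf4b, so its counts are not of chaperones alone. Its genes with most UMIs, xbp1 and pdia3, are not given here, and hspa5 and hsp90b1 are named as leading genes of the Hsp70 and Hsp90 lists. In injured over uninjured, 14 of 20 measured genes were higher and 0 lower, against 25.1% and 4.62% of all genes (median 1.33, all genes 0.39), among them hspa5 (1.83), hsp90b1 (1.68) and the collagen chaperone gene serpinh1b (1.23), while 5 of 9 measured cytosolic members were lower in the same cells. With TMM scaling 12 were higher and 1 lower, against 11% and 12.1% of all genes. In injured endocardium-like cells 8 of 20 were higher and 0 lower, against 8.35% and 4.96% of all genes (7 and 1 with TMM scaling, against 6.22% and 6.57%), with hspa5 at 1.098 (349 CPM in injured, 163 in uninjured). In mutant over wildtype fibroblast-like and epicardium-like cells 0 of 18 were higher and 13 lower, against 4.25% and 16.9% of all genes (median -1.31, all genes -0.27). TMM scaling gave 0 higher and 12 lower, against 12.1% and 8.31%. There hspa5 stood at -2.12 (47 and 139 UMIs) and atf4b, a transcription factor of the unfolded protein response, at -0.94. In cardiomyocyte-like cells 1 of 12 was higher and 0 lower in mutant, against 10.9% and 7.38% of all genes, and 2 of 13 higher and 0 lower in injured, against 19.3% and 3.08%. The lists share hspa5, hsp90b1 and serpinh1b with others.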
